A study of Homo sapiens with 8 samples.

Results

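Ribosome biogenesis and RNA polymerase I genes were followed across 4 treatments of 72 h in HL60, an established human leukaemia cell line. The set was defined by gene name, as every gene whose symbol begins with UTP, RRP, NOP, NOC, NOL or POLR1 followed by a digit or a letter from A to E, together with NPM1, NCL, FBL, DKC1, GAR1, NHP2, BOP1, PES1 and WDR12. It held 51 of the 9543 genes in the table, 42 by prefix and 9 by symbol, and all 51 passed the filter on low values. The cells received phosphate-buffered saline (PBS), VC (vitamin C in the series title), 3-deazaneplanocin A (DZNep, an inhibitor of S-adenosylhomocysteine hydrolase) or VC and DZNep together, with 2 libraries in each of the 4 groups and 8 in all. The PBS group is labelled control in the table and is the only drug-free group. All groups share 1 cell line in serum-containing RPMI medium, and nothing in the labels ties the 2 libraries of a group to separate cultures, so p values measure only the spread between libraries, which may be technical.

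Ribosomes are made in the nucleolus. RNA polymerase I copies the ribosomal DNA into a long precursor RNA. Small nucleolar ribonucleoproteins (snoRNPs) modify this RNA at chosen bases, a large assembly called the small subunit processome folds and cleaves the part that becomes the small subunit RNA, and a separate series of assembly factors builds the large subunit. Leukaemia cells make ribosomes at a high rate, and MYC is a known activator of many of these genes. The measurements here are of messenger RNA for the factors, not of ribosomal RNA or ribosomes.

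Values are the authors' normalized whole numbers, called units here, which share 1 distribution in all 8 libraries, with a total of 1988507 and a median of 88 units per library. Read depth is therefore unknown, a change common to most genes would not be visible, and levels of different genes cannot be ranked as abundances. Of 9 promyelocyte markers, 6 were measured (MPO, CTSG, SRGN, CD33, MYB and CEBPE) and 3 were not analysed here. Their summed level was 4813 to 5573 units in the 4 libraries without DZNep and 7500 to 9558 in the 4 with it. The markers did not move together: SRGN was higher (mean DZNep effect 2.25) and CTSG lower (-1.78) by limma. In all 3 of the 6 were called higher and 1 lower, with a median of 0.23, so the sum does not stand for each marker. Few markers of other cells were in the table, and the rest were not analysed here: 2 of 6 lymphoid genes, CD2 and CD79A, summed to 14 to 19 units without DZNep and 28 to 48 with it, PECAM1, 1 of 5 adherent-cell genes, was at 26 to 34 and 37 to 56 units, and ITGA2B, 1 of 5 erythroid and megakaryocyte genes, was at 374 to 450 units without DZNep, 718 and 620 with DZNep and 413 and 394 with both drugs. The promyelocyte and lymphoid sums and the PECAM1 level were higher in all 4 libraries with DZNep, and ITGA2B in the 2 with DZNep alone. The part of these markers in the results below was not tested. In bulk RNA, fewer cells of a type and less RNA per cell cannot be told apart.

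More of the set rose than fell with DZNep. Averaged over the backgrounds without and with VC (4 libraries with DZNep against 4 without), 21 of 51 genes rose and 5 fell. The 5 were NPM1, POLR1D, NOP53, NOL7 and NOL4L. Rises were modest, from 0.27 to 0.85 on the log2 scale, and 4 genes, NPM1, RRP1B, UTP20 and POLR1D, passed with a difference of at least 1.5-fold. The median log2 fold change of the 51 genes was 0.26, against 0.01 over all 9513 genes tested. The test was limma's moderated test, two-sided, with Benjamini-Hochberg adjustment over all genes tested and a threshold of 0.05. Past that threshold were 41.2% of the set as higher and 9.80% as lower, beside a background of 13.9% of all genes higher and 14.1% lower. Of the 26 calls, 12 held in all 14 alternatives: NPM1, RRP1B, POLR1D, NOP53, UTP20, NOP9, RRP12, POLR1B, NOL8, NOL10, NOL6 and NOL7. Without the intensity trend the count was 17.

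**Figure D1:**
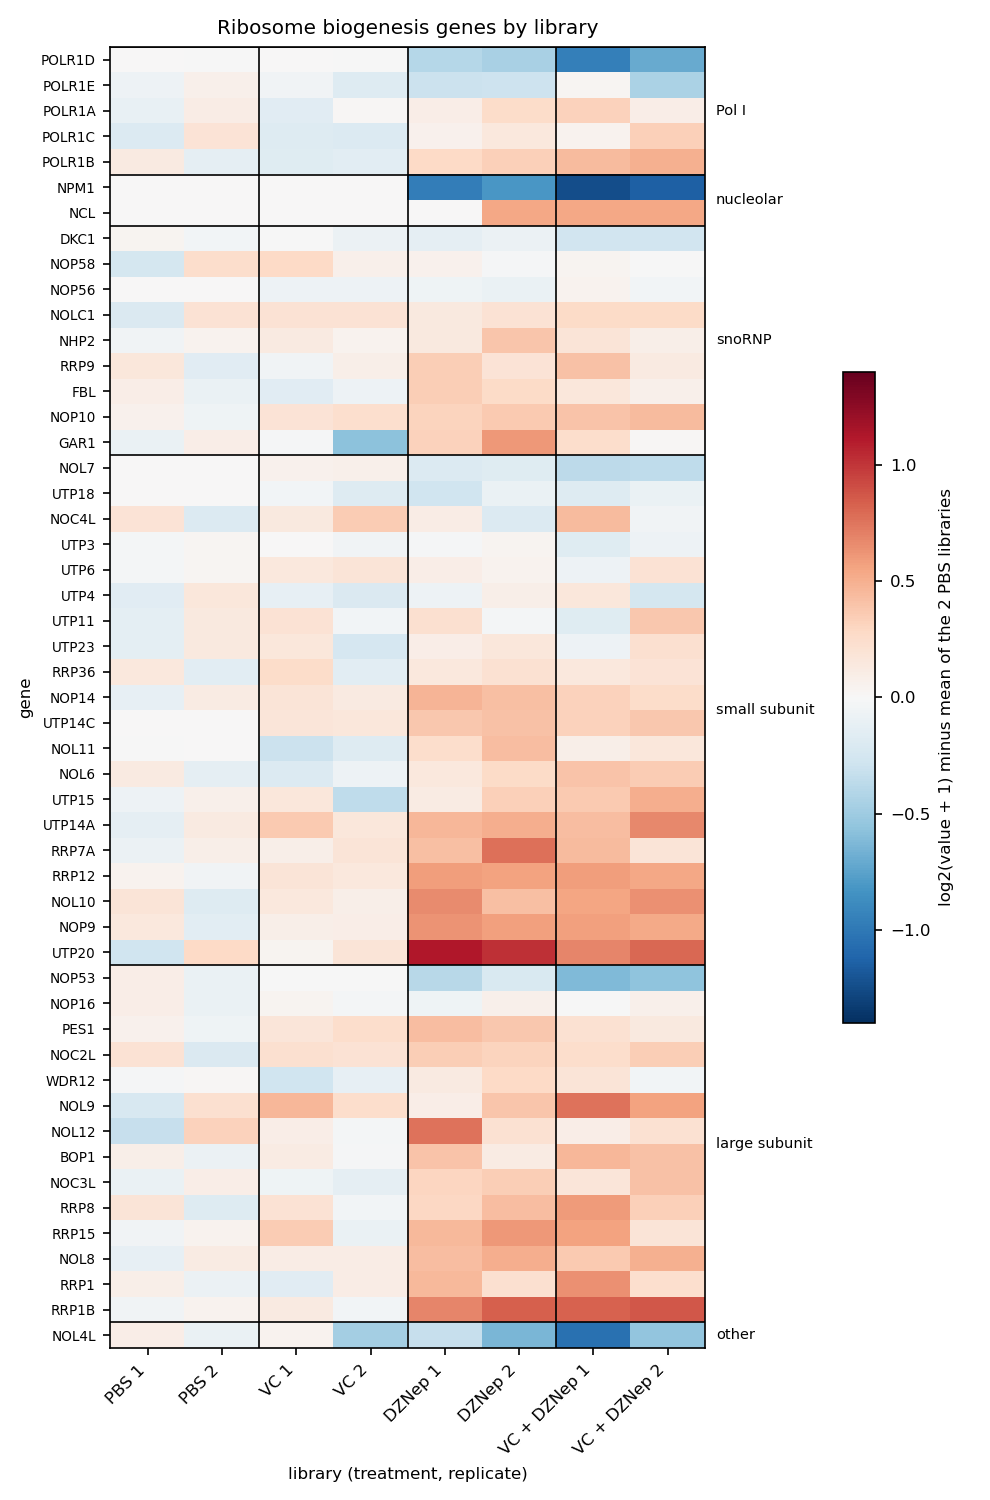
Each row is 1 of the 51 genes and each column 1 of the 8 libraries, and colour gives log2(value + 1) minus the mean of the 2 PBS libraries, red for higher and blue for lower. Genes are grouped by role and ordered within a role by the mean DZNep effect. The 4 DZNep columns on the right are mostly red in the small and large subunit groups. NPM1, POLR1D, NOP53, NOL7 and NOL4L, called lower in the mean DZNep effect, are blue there. Some genes not called in that effect, such as DKC1 and UTP18, are blue too.

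RNA polymerase I was represented by 5 subunit genes, and they did not move together. POLR1B, the second largest subunit, rose. It was at 174 and 146 units with PBS, 142 and 144 with VC, 194 and 201 with DZNep and 217 and 226 with both drugs, so every library with DZNep was above every library without. Its mean DZNep effect was 0.47 ± 0.0835 on the log2 scale (limma SE, adjusted p = 0.00249).

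POLR1D, a small subunit shared by RNA polymerases I and III (ENSG00000186184, chr13:27620742-27744237, plus strand, GRCh38), fell. It was at 1750 and 1749 units with PBS, 1750 and 1749 with VC, 1324 and 1280 with DZNep and 900 and 1075 with both. The groups with DZNep did not overlap those without, and the combination lay below DZNep alone. The mean DZNep effect was -0.63 ± 0.0633 (limma adjusted p = 7.55e-05). The near-identical values in the 4 libraries without DZNep are 1 rank of the normalized distribution, rank 15 within its class of gene span, so their spread understates the true one.

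The other 3 subunits were not called in any comparison. POLR1A, the catalytic subunit, was at 333 to 398 units without DZNep and 395 to 463 with it (mean effect 0.23, limma adjusted p = 0.0714). POLR1C, which like POLR1D is shared with RNA polymerase III, was at 93 to 122 and 110 to 134 units, and POLR1E, the PAF53 subunit, at 166 to 197 and 138 to 192 units. POLR1C and POLR1D form a dimer within the enzyme, and their mean DZNep effects were 0.24 (not called) and -0.63 on the log2 scale.

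NPM1 (ENSG00000181163, chr5:171387116-171411137, plus strand, GRCh38), the nucleolar phosphoprotein and histone chaperone nucleophosmin, had the smallest p of the set. It was at 4795 units in each of the 4 libraries without DZNep, at 2458 and 2724 with DZNep and at 2021 and 2170 with both drugs. Both DZNep groups were far below the others, and the combination was below DZNep alone. The mean effect was a 2.06-fold decrease (log2 -1.04 ± 0.0525, limma adjusted p = 8.89e-07). The identical values in the 4 libraries without DZNep are 1 value of the normalized distribution, so their spread understates the true one. NPM1 stood at rank 4 or 5 of its span class in the libraries without DZNep and at ranks 9 to 12 with it, and steps between neighbouring ranks there are 0.09 to 0.19 on the log2 scale around its values with DZNep. NPM1 has many processed pseudogenes, and how reads shared with them were counted is not given in the sources used here.

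NCL, nucleolin, which acts in ribosomal RNA transcription and early processing, went the other way, but by 1 rank only. It was at 5185 units in both PBS and both VC libraries, at 5185 and 7552 with DZNep and at 7552 in both libraries with both drugs. These are ranks 3 and 2 of its span class, and the step between them is 0.54 on the log2 scale. The limma call (mean effect 0.41, adjusted p = 0.00922) therefore rests on the exchange of neighbouring ranks, and it was lost without the intensity trend (adjusted p = 0.0573).

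**Figure D2:**
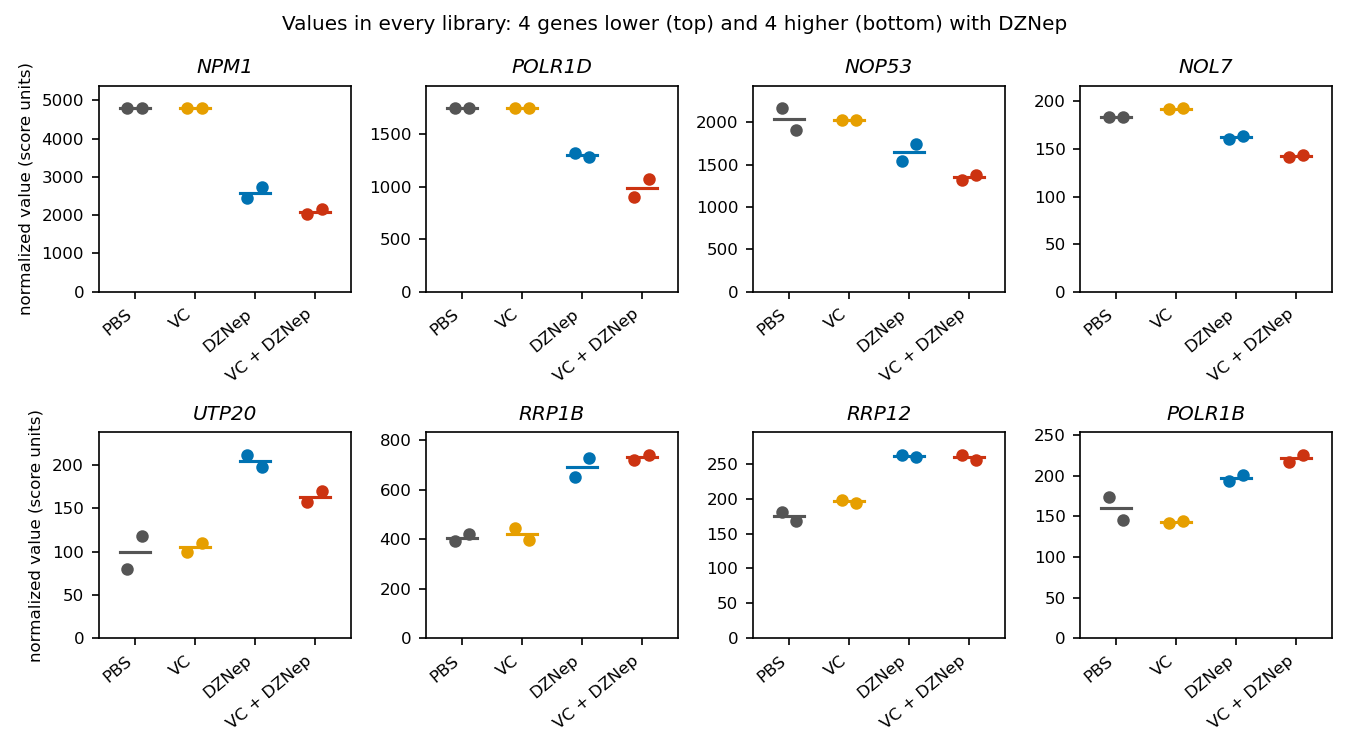
Normalized values in score units of 8 genes in every library, with points for the 2 libraries of a group, bars for their mean and axes from 0. In the top row NPM1, POLR1D, NOP53 and NOL7 fall with DZNep and are lowest with VC and DZNep, and in the bottom row UTP20, RRP1B, RRP12 and POLR1B are higher in all 4 libraries with DZNep than in the 4 without.

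Of 9 snoRNP genes 3 rose, none fell and 6 were not called in the mean DZNep effect, beside 13.9% of all genes higher and 14.1% lower. FBL, fibrillarin, the methyltransferase of the box C/D particles, was at 1074 and 942 units with PBS, 900 and 960 with VC, 1278 and 1215 with DZNep and 1120 and 1056 with both. The groups touched, since the lowest DZNep value lay under the highest PBS value (mean effect 0.27 ± 0.0627, limma adjusted p = 0.00995, and 0.0607 without the intensity trend). NOP10, of the box H/ACA particles that make pseudouridine, was at 162 and 150 units with PBS, 178 and 184 with VC, 194 and 202 with DZNep and 206 and 213 with both, with no overlap (0.28 ± 0.0753, adjusted p = 0.0203). GAR1, its H/ACA partner, was at 76 and 86 units with PBS, 80 and 54 with VC, 101 and 124 with DZNep and 96 and 82 with both, with overlap (0.45 ± 0.141, adjusted p = 0.038, called in 6 of 14 alternatives). The box C/D core genes NOP56 and NOP58 were at 399 to 420 and 262 to 377 units without DZNep and 395 to 436 and 307 to 324 with it, and their mean effects, neither called, were 0.00 and -0.07. DKC1, the pseudouridine synthase dyskerin, was at 718 and 680 units with PBS, 697 and 660 with VC, 642 and 660 with DZNep and 582 in both libraries of the combination. DKC1 was called for the combination against PBS only (-0.26, limma adjusted p = 0.0457), in 4 of 15 alternatives. NHP2, of the H/ACA particles, was at 208 to 234 units without DZNep and 227 to 282 with it, and like NOLC1, a snoRNP chaperone, and RRP9, a protein of the U3 particle, it was not called in any comparison.

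Of 20 small subunit processome and 18S processing genes 10 rose, 1 fell and 9 were not called (median 0.29). Over all genes 13.9% were higher and 14.1% lower. UTP20 (ENSG00000120800, chr12:101280109-101386616, plus strand, GRCh38), a very large repeat protein of the processome, had the largest rise of the set. It was at 80 and 118 units with PBS, 100 and 110 with VC, 212 and 198 with DZNep and 157 and 170 with both. The DZNep groups lay wholly above the rest, and the combination sat between DZNep alone and the drug-free level. The difference between the combination and DZNep alone was not called (-0.32, limma adjusted p = 0.443). The mean DZNep effect was 0.85 ± 0.121 (limma adjusted p = 0.000602).

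RRP12, needed for maturation and export of pre-ribosomes, was at 181 and 168 units with PBS, 198 and 194 with VC, 263 and 259 with DZNep and 263 and 255 with both, with no overlap (0.49 ± 0.0714, adjusted p = 0.000716). The values with DZNep alone and with both drugs were nearly the same. NOP9, an RNA-binding repeat protein of 18S processing, was at 315 and 258 units with PBS, 301 and 305 with VC, 440 and 424 with DZNep and 424 and 412 with both (0.53 ± 0.0767, adjusted p = 0.000674). The processome genes NOL10 (0.51), NOL6 (0.36), NOL11 (0.35), NOP14 (0.29) and UTP14A (0.39) rose too, as did RRP7A (0.39) and the UTP14A retrocopy UTP14C (0.29). NOL10 was at 94 and 73 units with PBS, 92 and 88 with VC, 132 and 111 with DZNep and 122 and 130 with both. NOL6 was at 278 and 233, 222 and 242, 282 and 307, and 336 and 326 units in the same order. Both lay higher in every library with DZNep than in any without, NOL6 by a narrow gap. NOL11, at 137 and 139, 112 and 122, 164 and 186, and 146 and 154 units, and NOP14, at 326 and 383, 402 and 387, 490 and 472, and 442 and 424 units, did not overlap either. UTP14A was at 98 and 116, 138 and 119, 148 and 152, and 144 and 171 units. RRP7A was at 124 and 140, 140 and 150, 177 and 226, and 180 and 150 units, so that 1 library with both drugs equalled a VC library. UTP14C was at 105 and 105, 118 and 117, 137 and 140, and 132 and 137 units, with no overlap. UTP14A and UTP14C are close paralogs whose reads may have been split, RRP7A has a pseudogene, and UTP14C shares exon bases with ALG11, so these values are uncertain.

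NOL7 was the 1 gene of this group to fall. It was at 184 and 184 units with PBS, 192 and 193 with VC, 161 and 164 with DZNep and 142 and 144 with both, with no overlap (-0.30 ± 0.074, limma adjusted p = 0.0123). UTP3, UTP4, UTP6, UTP11, UTP15, UTP18, UTP23, NOC4L and RRP36 were not called in any comparison, and their mean effects ran from -0.10 for UTP18 to 0.38 for UTP15.

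Among 14 large subunit assembly genes 6 rose, 1 fell and 7 were not called (median 0.31), beside 13.9% of all genes higher and 14.1% lower. RRP1B (ENSG00000160208, chr21:43659548-43696079, plus strand, GRCh38), a nucleolar protein of the late pre-ribosome and of chromatin, was at 392 and 420 units with PBS, 444 and 395 with VC, 652 and 728 with DZNep and 718 and 741 with both. Every value with DZNep lay above 600 units and every other value below 450 units, and the difference was 1.72-fold (0.78 ± 0.069, limma adjusted p = 3.51e-05). Its paralog RRP1 was at 122 and 108 units with PBS, 103 and 123 with VC, 158 and 134 with DZNep and 180 and 135 with both (0.40 ± 0.118, adjusted p = 0.0281). NOL8 (0.40), BOP1 (0.32), NOC3L (0.35) and the ribosomal RNA methyltransferase gene RRP8 (0.37) also rose. NOL8 was at 214 and 252 units with PBS, 250 and 250 with VC, 313 and 330 with DZNep and 299 and 328 with both, and NOC3L at 100 and 114, 102 and 98, 132 and 136, and 120 and 142 units, neither with overlap. RRP8 was at 124 and 97, 126 and 107, 134 and 148, and 166 and 138 units, with a narrow gap between libraries without and with DZNep. NOL9, an RNA kinase of large subunit processing, was called for the combination against PBS only (0.66, limma adjusted p = 0.0393, in 6 of 15 alternatives), at 43 and 59 against 86 and 75 units. NOC2L, NOL12, NOP16 and RRP15 were not called in any comparison.

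NOP53, which brings the exosome to the pre-large subunit, fell. It was at 2166 and 1902 units with PBS, 2020 and 2020 with VC, 1546 and 1747 with DZNep and 1323 and 1376 with both. No value with DZNep reached a value without it, and the mean effect was -0.44 ± 0.0627 (limma adjusted p = 0.000598).

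PES1, BOP1 and WDR12 encode the PeBoW complex, which is needed to process the large subunit RNA. BOP1 was at 227 and 204 units with PBS, 233 and 212 with VC, 284 and 233 with DZNep and 298 and 286 with both, with 1 DZNep library equal to the highest value without the drug. PES1 was at 210 and 194, 227 and 239, 273 and 262, and 234 and 222 units in the same order, so DZNep alone was highest and the combination lay close to VC. PES1 was called for DZNep against PBS (0.40 ± 0.103, limma adjusted p = 0.0287) and not for the combination against VC (-0.03, adjusted p = 0.876), but the test of the difference between these effects did not pass (-0.44, adjusted p = 0.597). The PES1 call was lost in 7 of 15 alternatives, among them those without PBS replicate 2, without DZNep replicate 1 or 2 and without VC replicate 1 or 2. WDR12 was at 190 to 233 units without DZNep and 224 to 280 with it and was not called (mean effect 0.23, adjusted p = 0.0585).

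NOL4L, which matches the name rule and has no established part in ribosome production, was at 54 and 47 units with PBS, 52 and 36 with VC, 40 and 32 with DZNep and 24 and 34 with both, with overlap between groups (-0.53 ± 0.178, limma adjusted p = 0.0468, called in 6 of 13 alternatives).

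DZNep against PBS and VC with DZNep against VC share no library, but their calls come from 1 fit with a common estimate of the spread. In the first, 12 of the 51 genes were higher and 3 lower past the limma threshold (29.4%), beside 13.1% of all genes (6.42% higher and 6.63% lower). In the second, 7 were higher and 4 lower (21.6%), beside 15% of all genes (6.89% higher and 8.14% lower). Of the 15 genes called in the first, 14 had the same sign in the second, PES1 being the exception, and 7 were called there: NPM1, POLR1D, NOP53, RRP1B, UTP20, NOP9 and RRP12. These 7 are 46.7% of the calls of the first comparison and 63.6% of those of the second, beside 57.8% and 50.2% over all genes. Of all 51 genes, 46 had the same sign in both (90.2%), beside 73.1% of all genes. The combination against PBS gave 13 higher and 6 lower (37.3%), beside 19.7% of all genes (9.52% higher and 10.2% lower).

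The counts for single comparisons depended on the libraries in the fit. For DZNep against PBS the count of 15 was 6 without DZNep replicate 1, 5 without DZNep replicate 2 and 9 without VC replicate 1 or 2. For the combination against PBS the count of 19 was 12 without PBS replicate 1 or 2, 7 without VC_DZNep replicate 1 and 6 without VC_DZNep replicate 2. For the combination against VC the count of 11 was 4 without VC replicate 1 or VC_DZNep replicate 2 and 5 without VC replicate 2 or VC_DZNep replicate 1. The POLR1D call for DZNep against PBS was lost without DZNep replicate 1, without DZNep replicate 2 and without the intensity trend (highest limma adjusted p over its 15 alternatives 0.0828). NPM1 and RRP1B were called in all 3 comparisons under every one of 15 alternatives.

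**Figure D3:**
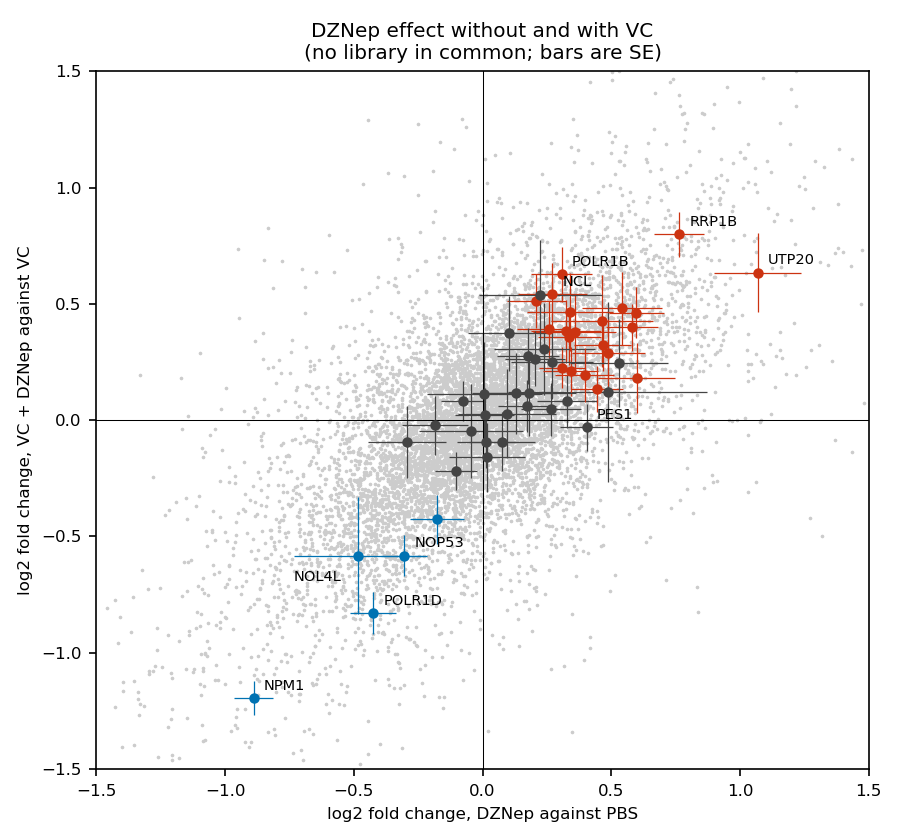
Log2 fold change of DZNep against PBS (horizontal) and of VC with DZNep against VC (vertical) for the 51 genes with limma standard errors, on top of all genes tested in grey, of which 173 lie outside the axes. Red and blue mark genes called higher and lower in the mean DZNep effect and dark grey those not called; 46 of 51 genes have the same sign on both axes.

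Counting genes whose 4 libraries with DZNep lay wholly beyond the 4 without, 17 of 51 were higher (33.3%) and 4 lower (7.84%), beside 12.9% of all genes in each direction. The 4 lower genes were NPM1, POLR1D, NOP53 and NOL7.

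VC alone against PBS gave no gene of the set past the limma threshold, a count of 0 of 51, with 0 at an unadjusted p under 0.05, beside 0% of all genes called and 462 genes with an unadjusted p under 0.05. Log2 fold changes ran from -0.29 for GAR1 to 0.36 for NOL9, with a median of 0.03.

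VC added to DZNep also gave 0 calls among the 51 genes against DZNep alone, with 4 at an unadjusted p under 0.05, beside 0.673% of all genes called and 1280 of 9513 genes with an unadjusted p under 0.05. POLR1D came nearest to the threshold, going from 1324 and 1280 to 900 and 1075 units (-0.40 ± 0.0896, limma adjusted p = 0.0744, both libraries lower). NPM1 followed (-0.31 ± 0.0743, adjusted p = 0.101, both libraries lower), then NOP53 (-0.28 ± 0.0886, adjusted p = 0.2, both lower). POLR1D passed without VC_DZNep replicate 2 (0.0321), and NCL, the 1-rank case above, without DZNep replicate 2 (0.0223). All 5 genes that fell in the mean DZNep effect had a negative value here, beside 63.6% of all genes that fell in that effect, and 10 of the 21 that rose had a positive one, beside 59.9%. Both libraries with VC and DZNep were below both with DZNep for 12 of 51 genes (23.5%) and above for 8 (15.7%), beside 20.4% and 20.6% of all genes.

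A difference between the effect of VC on drug-free cells and on DZNep-treated cells was called by limma for 0 of 51 genes, with 3 at an unadjusted p under 0.05, beside 0.021% of all genes called and 740 of 9513 with an unadjusted p under 0.05.

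Promoter sequences are shown for UTP20 and NOP10, which rose, and NPM1 and POLR1D, which fell, as examples with and without the E-box, the site of MYC and its partner MAX. They were chosen after their values were seen and do not stand for all genes. NOP9, POLR1B, NCL, RRP1, RRP8, NOL11, RRP7A and UTP14C rose and have no E-box in the window used, and NOL7 fell and has one. Each is the 250 bases before the RefSeq start on GRCh38.p14, written 5′ to 3′ on the gene's strand, with motif matches in capitals: UTP20 at chr12:101279855-101280104 (plus strand), NOP10 at chr15:34343137-34343386 (minus strand), NPM1 at chr5:171387599-171387848 (plus strand) and POLR1D at chr13:27620493-27620742 (plus strand). For NPM1 and POLR1D, which have 2 RefSeq starts each, the first listed is shown.
UTP20: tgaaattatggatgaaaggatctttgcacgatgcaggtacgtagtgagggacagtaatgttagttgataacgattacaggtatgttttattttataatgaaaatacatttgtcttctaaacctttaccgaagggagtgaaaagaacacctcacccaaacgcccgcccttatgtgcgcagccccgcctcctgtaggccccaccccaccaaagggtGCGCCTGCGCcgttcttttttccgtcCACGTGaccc
NOP10: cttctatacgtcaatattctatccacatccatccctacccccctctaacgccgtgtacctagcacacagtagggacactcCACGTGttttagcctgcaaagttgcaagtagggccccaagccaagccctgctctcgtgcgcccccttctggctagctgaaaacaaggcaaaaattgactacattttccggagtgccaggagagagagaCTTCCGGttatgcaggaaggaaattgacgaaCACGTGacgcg
NPM1: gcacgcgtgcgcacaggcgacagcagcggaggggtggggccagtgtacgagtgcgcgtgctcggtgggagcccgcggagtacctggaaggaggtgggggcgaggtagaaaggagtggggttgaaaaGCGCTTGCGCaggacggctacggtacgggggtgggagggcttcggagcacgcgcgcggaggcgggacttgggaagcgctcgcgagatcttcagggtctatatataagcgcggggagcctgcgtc
POLR1D: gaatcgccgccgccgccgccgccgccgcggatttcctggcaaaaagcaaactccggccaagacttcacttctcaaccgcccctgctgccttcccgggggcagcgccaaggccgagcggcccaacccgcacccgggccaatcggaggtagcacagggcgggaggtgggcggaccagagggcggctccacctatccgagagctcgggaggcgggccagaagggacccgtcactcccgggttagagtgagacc
In UTP20 the capitals mark an NRF1 site that begins 36 bases and an E-box that begins 10 bases before the start. In NOP10 they mark an E-box at 170 bases, an ETS core on the opposite strand at 42 bases and a further E-box at 11 bases before the start. In NPM1 they mark an NRF1 site at 124 bases, and POLR1D has no match.

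The search covered windows of 300 bases, 250 before and 50 after the start, on both strands, for the E-box CACGTG, the ETS core CCGGAAG, the NRF1 site and a composite site of ATF4, TGATGNAA. Of the 51 genes 43 had a window, 48 windows in all since some have several starts. In the counts below all windows of a gene were scored by the last start listed for it, in the set and in the backgrounds. So scored, the E-box was in 15 of 48 windows (31.2%), or 14 of 43 genes. This stands beside 9.96% of 11189 windows of measured genes and 7.09% of all 35116 windows. Both windows of GAR1 are counted here, although its first listed start has no E-box. The ETS core was in 17 (35.4%), beside 2019 of the 11189 windows of measured genes and 10.1% of all windows. The NRF1 site was in 7 (14.6%), beside 10.2% of windows of measured genes and 5.42% of all. Left out by this scoring are the ETS core at the first listed start of GAR1 and the NRF1 site shown above for NPM1. The ATF4 composite site was in 0 of 48, beside 2.23% and 3.94%. By the same scoring 10 of 19 windows of the genes that rose in the mean DZNep effect counted as holding an E-box. Among these are both windows of GAR1, of which only that of the last start holds one. Among windows of the 5 genes that fell it was 1 of 8, that of NOL7. These are matches of letters in a window and were not tested.

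Other genes of the pathway were counted from lists that leave out the 51. The background for these counts is 13.9% of all genes higher and 14.1% lower in the mean DZNep effect. Of 39 small subunit processome and small subunit assembly genes tested 15 rose and 2 fell in the mean DZNep effect (median 0.24). HEATR1, which links the processome to RNA polymerase I (0.56), TSR3, a modification enzyme of the small subunit RNA (0.56), and PDCD11, the RRP5 protein (0.53), rose, and the kinase gene RIOK3 fell (-0.44). Of 13 snoRNP assembly and nucleolar chaperone genes 5 rose and 0 fell (median 0.26), among them ZNHIT6 (0.67) and SHQ1 (0.89), assembly factors of the box C/D and H/ACA particles, TCOF1, the treacle protein of ribosomal DNA transcription (0.39), and SNU13, a box C/D core protein (0.26).

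Of 17 further RNA polymerase I factors and subunits 4 rose and 1 fell (median 0.24). TWISTNB, a subunit of the enzyme's stalk, rose by 0.60, with 164 ± 14.1 units with PBS and 243 ± 18.4 with DZNep (SD, n = 2), and TAF1C, of the promoter selectivity factor, by 0.37. POLR2L, a subunit common to all 3 nuclear polymerases, rose by 0.40, and TAF1D, also of the selectivity factor, fell by 0.59. Of 19 RNA polymerase III genes 4 rose and 1 fell (median 0.06), with GTF3C6 (0.84) and GTF3A (0.36) higher and GTF3C5 (-0.54) lower, and POLR3B higher (0.45).

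Of 45 large subunit assembly and export genes 10 rose and 5 fell (median 0.08). MDN1, the giant ATPase that strips factors from the pre-large subunit, had the largest rise among them (1.01 ± 0.0634, limma adjusted p = 3.47e-06; 1324 and 1377 units with PBS, 2726 and 3114 with DZNep), and GNL3 (0.50), DDX31 (0.79) and LSG1 (0.61) rose too. Of 27 exosome and nuclease genes 4 rose and 1 fell (median 0.10), so the share that rose was close to that of all genes (13.9%). The nuclear 5′ exonuclease gene XRN2 fell by 0.60, while the RNase P and MRP subunit genes POP1 (1.07) and POP4 (0.35) and the exosome helicase gene SKIV2L2 (0.40) rose. Of 22 upstream regulators 2 rose and 2 fell (median -0.04), shares below those of all genes (13.9% higher and 14.1% lower). MYC, an activator of ribosome production, and MDM2, a ubiquitin ligase of p53, rose, MYC by 0.41 ± 0.0671 (limma adjusted p = 0.0015) and MDM2 by 0.25, while the kinase gene MAPK3 fell by 0.62 and the tumour suppressor gene RB1 by 0.32. In VC with DZNep against DZNep none of these 7 lists had a gene past the limma threshold.

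**Figure D4:**
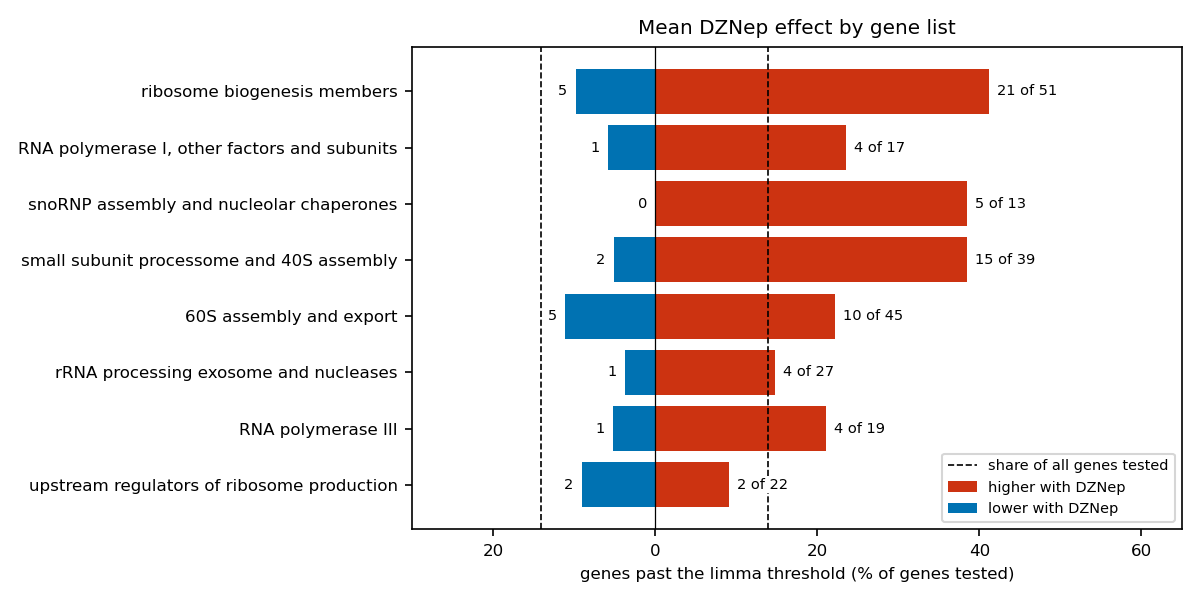
Bars give the share of genes past the limma threshold in the mean DZNep effect, higher to the right and lower to the left, as % of the genes tested in each list, with counts beside them. Dashed lines mark the shares over all genes tested, 13.9% higher and 14.1% lower. The set of 51 genes, the snoRNP assembly list and the small subunit list reach furthest to the right.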

How the data were processed

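RNA of 8 HL60 libraries, 2 per treatment, was prepared with an Illumina TruSeq kit. Tools in the submitters' processing notes are DESeq 1.18.1, HTSeq 0.6.0, HISAT2 2.0.4 and SAMtools 1.3.1, the builds are GRCh38 and hg38, and EDASeq appears in a sheet name. The authors deposited a score, whole numbers already normalized and not raw reads, since all 8 columns hold the same sorted values. In 80 of 80 combinations of library and decile of gene span exactly 1 gene held the highest value, so values act as ranks within classes of span, taken here from GENCODE 29. Counting and strand settings are not given in the sources used here. Exons of 27 of the 51 genes overlap an exon of another gene in GENCODE 29, 21 of them on the opposite strand.

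Values were taken as log2(value + 1), genes with a mean under 10 were dropped (30 genes), and limma 3.58.1 in R 4.3.3 fitted 1 mean per group to all 8 libraries with an intensity trend (4 residual and 6.46 prior degrees of freedom). Tests were two-sided, adjusted by Benjamini-Hochberg over 9513 genes in each of 7 comparisons. Fold changes are on the log2(value + 1) scale and understate the change of low genes. Alternatives changed the pseudocount, filter, trend, libraries, scaling and replicate block. The set, gene lists, roles, motifs and rule for naming genes were chosen with earlier results of these data known. The rule named every gene past the threshold in any comparison, the 9 listed by symbol and all POLR1 genes, and up to 4 genes a list with the smallest p in the mean DZNep effect. Promoter sequences are from RefSeq.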

Additional observations from a re-analysis of the deposited data

How the results depend on the processing

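The numbers of the 51 genes past the limma threshold were most sensitive to the prior variance and to the libraries used. Without the intensity trend they were 5 for DZNep against PBS, 9 for VC with DZNep against PBS, 6 for VC with DZNep against VC and 17 for the mean DZNep effect. With only the libraries of the groups compared they were 5 for DZNep against PBS and 6 for VC with DZNep against PBS, while VC with DZNep against VC stayed at 11, with 2 residual degrees of freedom. Leaving out 1 library in turn gave 5 to 10 for DZNep against PBS, 6 to 15 for VC with DZNep against PBS, 4 to 13 for VC with DZNep against VC, 18 to 23 for the mean DZNep effect and 0 to 1 for VC with DZNep against DZNep. A library left alone in its group is assumed to vary like the others.

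Over all genes, without the trend 739 passed for DZNep against PBS (1242 with it), 928 for VC with DZNep against VC (1429) and 2 for VC with DZNep against DZNep (64). With only the libraries compared, 454 passed for DZNep against PBS, 894 for VC with DZNep against PBS (1875) and 4 for VC with DZNep against DZNep, for which median-of-ratios scaling gave 107. Leaving out 1 library gave 438 to 1028, 866 to 1649, 501 to 1553 and 4 to 78 genes for DZNep against PBS, VC with DZNep against PBS, against VC and against DZNep. Of 2536 alternative values for named genes, 289 lost the call, 9 gained it and 0 reversed. Fitting the replicate number as a block gave 13, 18, 12 and 27 of the 51 genes for DZNep against PBS, VC with DZNep against PBS, VC with DZNep against VC and the mean DZNep effect, in place of 15, 19, 11 and 26. Same-numbered libraries did not deviate together (correlations of -0.05 to 0.0939 across genes), so the numbers were not taken as pairs. Depth is unknown, and near the top of the distribution 1 rank can be worth 0.54 on the log2 scale.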

Other observations

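Of the genes whose exons overlap exons of the set, 16 were in the table, each paired with 1 gene of the set. In 5 of the 16 all 4 libraries with DZNep lay beyond the 4 without, 2 higher and 3 lower, beside 12.9% of all genes in each direction. In 2 pairs both genes were separated, on the same side: CIDEB, which overlaps NOP9 on the opposite strand by up to 670 bases, was at 144 and 154 units with PBS, 129 and 149 with VC, 174 and 183 with DZNep and 192 and 184 with both, and RANBP9, which overlaps NOL7 on the opposite strand by up to 347 bases, was at 135 and 105, 101 and 109, 91 and 91, and 96 and 86 units. In 3 pairs only the overlapping gene was separated: CHTF8 (higher, with UTP4), EIF3H and RAD21 (both lower, with UTP23). In 4 pairs only the gene of the set was: NOC2L with SAMD11, NOL8 with CENPP, NOP9 with LTB4R2 and UTP14C with ALG11, which shares up to 3853 bases of exon on the same strand. In the other 7 pairs neither was. Whether reads were shared between these pairs was not tested.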
